A study of Mus musculus with 14 samples.

Results

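Among the 67811 loci that the authors' FPKM tables hold (fragments scaled by transcript length and by the mapped fragments of the library), 14314 carry no gene name. The 1569 loci described here were chosen by their FPKM and position: they are unnamed, hold 0.1 FPKM or more in 3 or more of the 14 libraries, overlap no named locus and lie more than 10000 bases from the nearest named range. They are called intergenic loci below. Without the minimum level, 7516 unnamed loci lie that far from a named range, and 25824 loci of all kinds reach the level and were tested. Polyadenylated RNA came from heads, brains included, of mouse embryos at E12.5 (embryonic day) on the C57BL/6J background. The groups were 5 Zcchc8+/+ (WT), 3 Zcchc8+/- (HET) and 6 Zcchc8-/- (KO) libraries. Whether every library is a separate embryo is not said in the labels. By Xist and Y-linked genes, WT2, WT5, HET4, HET5, KO1, KO4, KO5 and KO6 were female and the others male. Each group thus held embryos of both sexes, in different proportions. The p-values describe the spread among libraries, part of which could be technical. Heads hold many cell types, and fewer cells of a type cannot be told apart from less RNA per cell. The term intergenic follows from the names in the files: 534 of the loci overlap a gene of RefSeq (GRCm38.p6), of which 499 overlap a long non-coding RNA, and 109 overlap a GENCODE M21 gene. No annotated gene of either set overlaps 1006 loci.

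ZCCHC8 holds together the NEXT complex (for nuclear exosome targeting), in which RBM7 binds RNA and the helicase MTR4 (gene Skiv2l2) feeds it to the RNA exosome. Known substrates of NEXT are short, unspliced nuclear transcripts, among them upstream antisense RNAs of promoters and RNAs made at enhancers, which in normal cells are degraded soon after they are made. Enhancers can lie far from the genes they act on, and their RNAs are often made from both strands and lack an annotation.

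The genome sequence was not used here, so the DNA of the loci is shown only where a RefSeq promoter window, 250 bases before to 50 after an annotated start, overlaps one. Such windows overlap 147 of the 1569 loci. The 4 shown belong to non-coding RefSeq genes, overlap loci that were higher in KO heads and differ in CpG content, with CpG pairs in capitals. They are printed 5′ to 3′ on the strand of the gene.
Gm46609: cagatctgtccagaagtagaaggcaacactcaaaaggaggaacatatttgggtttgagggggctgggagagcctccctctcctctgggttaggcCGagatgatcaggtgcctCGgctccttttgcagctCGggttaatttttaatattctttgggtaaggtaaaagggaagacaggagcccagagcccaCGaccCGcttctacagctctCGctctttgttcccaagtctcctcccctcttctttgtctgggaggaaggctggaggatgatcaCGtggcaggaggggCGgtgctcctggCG
Gm34739: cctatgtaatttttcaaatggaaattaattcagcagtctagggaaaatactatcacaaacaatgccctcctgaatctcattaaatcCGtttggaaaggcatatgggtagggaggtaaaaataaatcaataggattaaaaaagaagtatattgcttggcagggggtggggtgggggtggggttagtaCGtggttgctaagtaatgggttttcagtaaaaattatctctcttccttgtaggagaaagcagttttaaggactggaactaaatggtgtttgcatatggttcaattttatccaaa
Gm36354: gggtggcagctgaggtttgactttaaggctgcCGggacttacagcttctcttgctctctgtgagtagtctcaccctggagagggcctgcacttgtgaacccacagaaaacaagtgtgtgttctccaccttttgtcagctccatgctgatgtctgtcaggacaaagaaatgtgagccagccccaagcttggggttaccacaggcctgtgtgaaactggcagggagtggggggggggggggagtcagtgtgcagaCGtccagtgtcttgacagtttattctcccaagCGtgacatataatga
Gm41301: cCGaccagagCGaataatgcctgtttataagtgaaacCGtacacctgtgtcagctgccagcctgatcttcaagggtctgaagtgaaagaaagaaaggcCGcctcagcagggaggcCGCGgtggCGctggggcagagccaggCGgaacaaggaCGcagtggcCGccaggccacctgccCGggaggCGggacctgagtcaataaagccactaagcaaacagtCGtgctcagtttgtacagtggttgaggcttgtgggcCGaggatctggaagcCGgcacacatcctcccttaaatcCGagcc

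The Gm46609 window (chr17:87613494-87613793, minus strand) holds 9 CpG pairs at 54.7% G+C. That of Gm34739 (chr2:65415306-65415605, minus strand) holds 2 at 37.3% G+C. The Gm36354 window (chr6:88939671-88939970, plus strand) holds 3 and overlaps its locus only in the part before the gene's start, and that of Gm41301 (chr15:37135692-37135991, minus strand) holds 16. The ratio of observed to expected CpG was 0.41, 0.21, 0.14 and 0.62 in the same order. Over the 156 windows that overlap intergenic loci its median was 0.255 at a median G+C of 47.3%, and 7.05% of them reached 0.6. Over all 32851 RefSeq promoter windows the median was 0.384 at 52.7% G+C, and 35.8% reached 0.6. The windows that overlap intergenic loci were thus poorer in CpG than RefSeq promoters at large. Those that overlap loci higher in KO had a median of 0.316, and those that overlap loci not called had 0.244. The letters AATAAA, read on both strands, stand in 37.2% of the windows that overlap intergenic loci and in 19.6% of all windows. The letters TATAAA, also on both strands and with any overlap allowed, stand in 19.2% and 13.6%. Both strings are made of A and T, and the windows differ in G+C as given.

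The intergenic loci were detected far more often in KO heads than in the other genotypes. At an FPKM of at least 0.1, between 352 and 423 of them were detected in a WT library, between 403 and 436 in a HET library and between 792 and 1041 in a KO library. Every KO library stood above every WT and HET library. WT libraries averaged 397 ± 27.5 (SD, n = 5), HET libraries 416 ± 17.6 (SD, n = 3) and KO libraries 951 ± 105 (SD, n = 6). Since the rule counts a locus that passes through KO alone, these numbers are a description and no test was made. Named loci were also detected more often in KO. Between 18320 and 18730 were detected in a WT library, 18183 to 18659 in HET and 19064 to 20445 in KO. Total depth is unknown, and relative depth, read from the smallest FPKM steps, spanned 1.0 to 1.197 in WT, 1.231 to 1.32 in HET and 1.149 to 1.495 in KO, with WT1 set to 1. By relative depth, KO1 (1.149) had 792 detected loci, KO2 (1.181) 960 and KO3 (1.266) 854. Of the deeper KO libraries, KO5 (1.357) had 1037, KO6 (1.414) 1041 and KO4 (1.495) 1023. The part of depth in these counts was not tested.

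**Figure D1:**
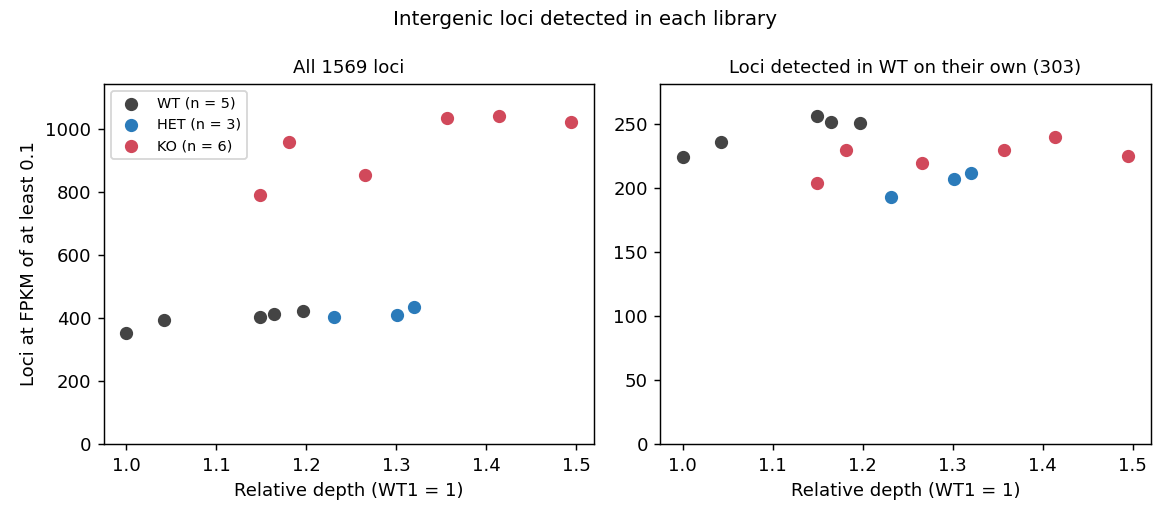
Number of intergenic loci at an FPKM of at least 0.1 in each library (y) against its relative depth (x, WT1 = 1), for all 1569 loci (left) and for the 303 that reach the level in 3 WT libraries (right). On the left every KO library lies above every WT and HET library, from 792 to 1041 against at most 436, and on the right KO libraries (204 to 240) overlap WT libraries (224 to 256).

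Levels were low in all genotypes. Over the 1569 loci, the mean FPKM of WT had a median of 0.0464, that of HET 0.0333 and that of KO 0.243. In all WT libraries 485 loci were listed at 0, which can mean that no fragment was assigned or that no estimate was made. At an FPKM of at least 1, between 66 and 83 loci were found in WT libraries, between 63 and 73 in HET and between 145 and 206 in KO. The KO libraries were again above all others. The sum of FPKM over loci of at least 300 bases did not separate the genotypes, at 3492 to 4992 in WT and 3485 to 6052 in KO, and 1 locus described below, chr3:5860333-5860777, made up most of it with a mean of 3724.

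In KO against WT heads, 539 of the 1569 intergenic loci were higher and 12 lower (limma-trend, Benjamini-Hochberg adjusted p under 0.05). That is 34.4% higher and 0.765% lower, beside 19.9% and 4.19% of all 25824 loci tested. Quantile normalization of the libraries changed that split to 352 higher and 98 lower, with 13.6% and 23.6% of all loci. Setting all libraries to a common median moved the median KO minus WT difference of all loci by -0.47 on the log2 scale, and 594 intergenic loci were then higher and 61 lower beside 16.8% and 52.4% of all loci. In the authors' quantile-normalized matrix, which is blank where FPKM is 0, 473 intergenic loci could be tested. They included 160 of the 539 higher loci, and 133 of the 160 were higher there too. Of the 473, 28.8% were higher and 2.96% lower, beside 28.4% and 1.9% of all loci tested there. Among unnamed loci of the other position classes, 36.3% of those 1 to 10 kb from a named locus, 68.6% of those within 1 kb and 47.9% of those overlapping one were higher, and among named loci 14% were higher and 5% lower. The difference between these classes was not tested. For 366 intergenic loci (23.3%) every KO library was above every WT library, beside 14.8% of all loci.

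**Figure D2:**
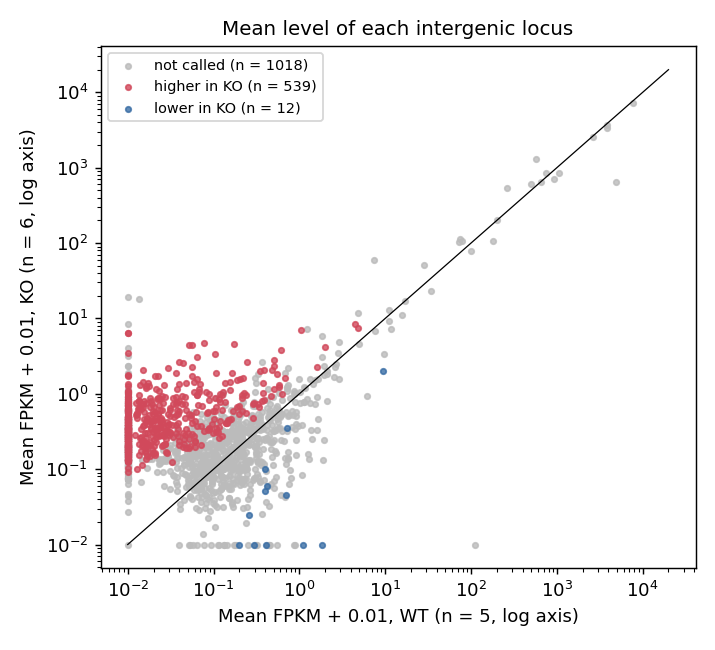
Mean FPKM of each of the 1569 intergenic loci in WT (x, n = 5) and KO (y, n = 6), both with 0.01 added and on log axes, with the line of equal levels. The 539 loci that were higher in KO lie mostly at WT means under 0.1 and KO means from 0.1 to 10, and the 12 that were lower lie below the line. Of the loci above 100 FPKM, some lie near it, such as chr1:122357131-122357243 (7782 in WT, 7187 in KO). Others do not, such as chr1:87731157-87731256 (4942 in WT, 648 in KO).

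How a locus entered the set bears on these counts. Through KO libraries alone came 767 loci, which had to be higher there, and 466 of them were called higher and 0 lower. Through WT libraries alone 303 loci would have entered, and of these 54 (17.8%) were higher and 12 (3.96%) lower. Over all loci that WT detects on its own, the shares were 11.7% and 5.58%. The balance among these 303 depended on scaling, with 40 higher and 61 lower under a common median and 26 higher and 92 lower after quantile normalization. Their median log2 difference was 0.04 as deposited. Through WT and HET libraries without KO, HET alone included, 200 further loci would have entered, of which 18 were higher and 0 lower. Of 299 that needed a mix of groups with KO, 1 was higher.

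The 539 higher loci were close to 0 in WT and HET heads. The median of their WT means was 0.00548 FPKM, of their HET means 0.00242 and of their KO means 0.377, with KO quartiles of 0.238 and 0.697. In 235 of them all WT libraries were listed at 0, and in 190 all WT and HET libraries were. The median log2 difference was 1.85 (quartiles 1.35 and 2.41), on the scale log2(FPKM + 0.1), which shrinks differences of low loci. At least 2-fold on that scale were 516 of the 539, and at least 8-fold 56. A mean FPKM of at least 1 in KO was reached by 74. In 365 every KO library exceeded every WT library.

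The 12 loci with the largest rises, among called loci with a KO mean of at least 0.5 FPKM and all KO libraries above the WT mean, spanned 189 to 12481 bases and rose by 4.07 to 5.83 on the log2 scale. They were picked for this rise, and all but those near Klf4 and Epcam entered the set only with the help of KO libraries. Their p-values and the gap between KO and the other libraries are therefore descriptions that the choice largely fixes. In all 12, every KO library was above every WT library, and all 12 were also called higher in KO than in HET, a comparison with the same KO libraries. A locus at chrX:94865905-94866105, 201 bases long with no strand in the file order and 141336 bases downstream of the start of the zinc finger gene Zxdb, was listed at 0 in all 5 WT and all 3 HET libraries. The KO libraries ranged from 2.77 to 11 FPKM with a median of 5.84. No fold is given against a group at 0. The limma-trend adjusted p of 1.5e-09 rests on the same KO values that brought the locus into the set. Zxdb itself was at 4.74 ± 0.199 FPKM in WT and 4.65 ± 0.357 in KO (SD, n = 5 and 6, limma-trend adjusted p = 0.795).

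The locus chr4:55650135-55651305 (minus strand) lies 117669 bases upstream of Klf4, on the same strand as this gene for a zinc finger factor of epithelia and stem cells. The WT libraries had 0, 0.0497, 0.0289, 0.0251 and 0.103 FPKM, the HET libraries 0.0677, 0.142 and 0.108, and the KO libraries 3.0 to 5.67 with a median of 4.45. All KO libraries were above all others. KO exceeded WT by 5.01 on the log2 scale (SE 0.2, limma-trend adjusted p = 7.1e-11), and the HET difference was 0.57 (SE 0.24, adjusted p = 1). Klf4 moved the other way, from 9.34 ± 0.813 (SD, n = 5) in WT to 7.11 ± 1.13 (SD, n = 6) in KO, a log2 difference of -0.40 (SE 0.1, limma-trend adjusted p = 0.00575). The KO library with the highest Klf4 (9.06) lay inside the WT range of 8.4 to 10.3, and in the authors' quantile-normalized matrix the Klf4 difference was -0.04 (adjusted p = 0.838), while scaling to a common median gave -0.91. Klf4 stood at 8.9 ± 0.392 FPKM in HET (SD, n = 3).

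Upstream of Ptma, the gene of the abundant nuclear protein prothymosin alpha, 2 intergenic loci rose together. The farther one, chr1:86487798-86491323 on the plus strand, had 0.0478 to 0.0928 FPKM in WT, 0.0812 to 0.176 in HET and 3.42 to 5.75 in KO (median 4.65). The nearer one, chr1:86501282-86505653 on the minus strand, had 0.0402 to 0.0632 in WT, 0.0557 to 0.125 in HET and 2.39 to 3.7 in KO (median 3.08). KO libraries did not overlap the others at either locus. They rose on the log2 scale by 4.82 (SE 0.15, limma-trend adjusted p = 1.2e-11) and 4.33 (SE 0.15, adjusted p = 2e-11). Ptma was at 2108 ± 86.6 FPKM in WT (SD, n = 5) and 2170 ± 145 in KO (SD, n = 6), with an adjusted p of 0.609.

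A locus of 2213 bases without a strand at chr18:5987843-5990055, downstream of the start of Arhgap12, had the smallest KO spread relative to its mean among the 12. Its WT values were 0.0102 to 0.0733 FPKM and its HET values 0.0363 to 0.0733, while its KO values ran from 4.04 to 5.09 with a median of 4.4. All KO libraries stood together and far above the rest, and the log2 difference was 4.98 (SE 0.14, limma-trend adjusted p = 5.4e-12). Arhgap12 was at 15.2 ± 0.815 FPKM in WT and 15.4 ± 1.51 in KO (SD, n = 5 and 6).

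The locus that overlaps the RefSeq gene Gm46609, whose promoter window is printed above, is chr17:87602417-87614897 on the minus strand, 21082 bases upstream of Epcam, which encodes an epithelial cell adhesion protein. WT libraries had 0.117, 0.281, 0.103, 0.166 and 0.138 FPKM, HET libraries 0.293, 0.303 and 0.29, and KO libraries 2.79 to 5.77 with a median of 4.6. The HET libraries stood together just above the highest WT library, and the KO libraries were far above both. KO exceeded WT by 4.16 on the log2 scale (SE 0.19, limma-trend adjusted p = 2.9e-10), and HET by 0.64 (SE 0.23, adjusted p = 1). It was the only one of the 12 that WT detected on its own. Epcam was at 17.2 ± 1.33 FPKM in WT and 16.2 ± 1.06 in KO (SD, n = 5 and 6, adjusted p = 0.365).

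The loci behind the other 3 printed windows also rose, from lower KO levels. The Gm34739 locus, chr2:65402855-65415765 near the solute carrier gene Slc38a11, had 0.0108 to 0.063 FPKM in WT, 0 to 0.0651 in HET and 0.492 to 1.09 in KO (log2 difference 2.92, SE 0.21, limma-trend adjusted p = 3.2e-08). The locus chr6:88938677-88939861 near Tpra1, which ends before the start of Gm36354, had 0.012 to 0.12 in WT, 0.00914 to 0.0827 in HET and 0.913 to 1.39 in KO (log2 difference 2.77, SE 0.2, adjusted p = 3.0e-08). The Gm41301 locus, chr15:37130977-37138156 near Grhl2, which encodes an epithelial transcription factor, had 0.0182 to 0.0973, 0.0377 to 0.168 and 0.448 to 2.26 (log2 difference 2.64, SE 0.32, adjusted p = 1.0e-05). At none of the 3 did a KO library overlap the others, and the window richest in CpG, that of Gm41301, belongs to the locus with the widest KO range.

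The remaining 6 of the 12 rose in the same way. At chr9:96670189-96671241, upstream of the start of the Ras GTPase-activating gene Rasa2, the level went from 0.0301 ± 0.0536 (SD, n = 5) in WT to 2.63 ± 0.744 (SD, n = 6) in KO. At chr9:41933817-41936485, downstream of the start of the sorting receptor gene Sorl1, it went from 0.00519 ± 0.00569 to 2.06 ± 0.468, and at chr12:79964905-79966908, downstream of the start of Zfp36l1, which encodes an RNA-binding protein, from 0.0195 ± 0.00941 to 2.19 ± 0.455. At chr13:34148316-34151078, upstream of the proteasome assembly gene Psmg4, it went from 0.0338 ± 0.0438 to 2.53 ± 0.485. This range overlaps RefSeq gene Gm36549 and is shared with a second intergenic locus that rose by 1.35. A locus of 189 bases at chr4:133911191-133911379, upstream of the kinase gene Rps6ka1, had 0.468 FPKM in WT4, 0 in the other WT and all HET libraries, and 2.21 to 5.25 in KO. The last, chr17:9765049-9765761, was listed at 0 in all WT and HET libraries and had 0.443 to 2.41 in KO. It lies in an intron of the GENCODE non-coding gene 4930452A19Rik.

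**Figure D3:**
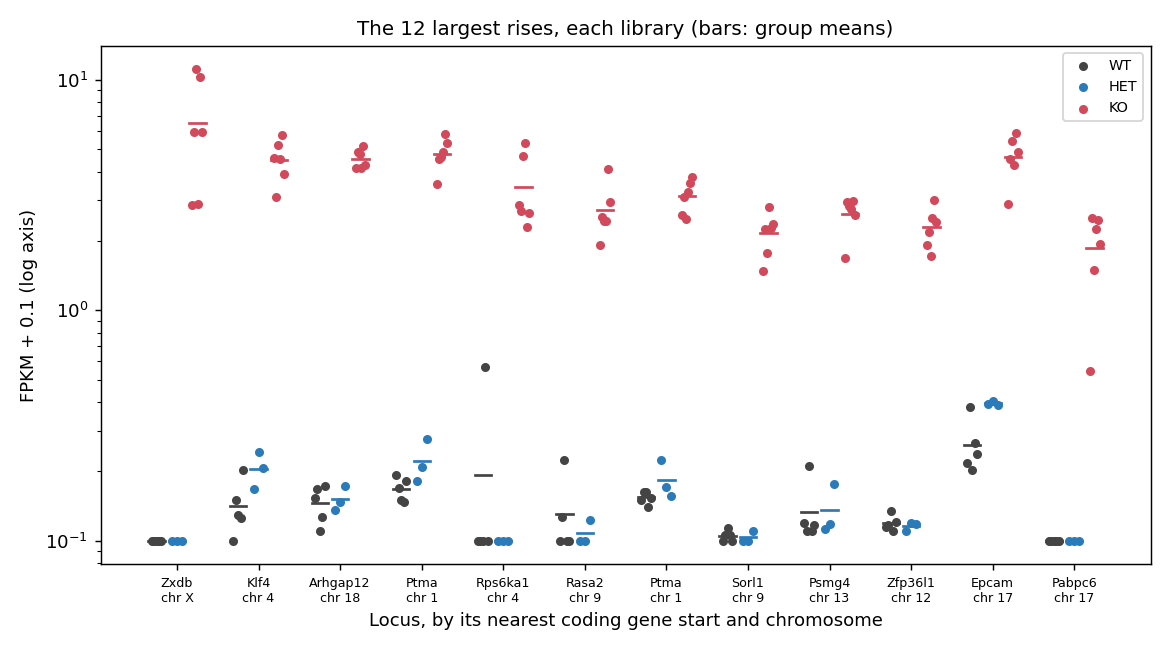
FPKM with 0.1 added (log axis) of the 12 loci with the largest rises in each library, by the coding gene with the nearest start, for WT, HET and KO, with short bars at the group means. At each locus all 6 KO points lie above all WT and HET points; the WT point nearest to KO is 0.468 FPKM in WT4 at the locus near Rps6ka1.

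Among loci that WT detected on its own, the rule took the 8 with the largest positive differences, of which 6 were called higher. Beside the Gm46609 locus these began from low but measurable levels. At chr17:63835401-63850218, upstream of the tyrosine kinase gene Fer, WT libraries had 0.0684 to 0.243 FPKM, HET 0.187 to 0.22 and KO 1.56 to 2.03 (median 1.87). KO did not overlap the others, and the log2 difference was 2.99 (SE 0.17, limma-trend adjusted p = 1.9e-09). At chr9:41271246-41292099, a range of 20854 bases shared with another locus, the nearest named locus holds the microRNA gene Mir125b-1, and the nearest coding start is that of Ubash3b. There WT libraries had 0.00883 to 0.245, HET 0 to 0.0745 and KO 0.854 to 1.77. The named locus with Mir125b-1 differed by 0.08 (adjusted p = 0.831).

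At chr3:55613030-55615118, whose nearest named range holds Mab21l1 and Nbea, WT libraries had 0.126 to 0.27 FPKM, HET 0.148 to 0.188 and KO 1.18 to 1.75, with a log2 difference of 2.5 (SE 0.15, limma-trend adjusted p = 4.7e-09). At chr8:82304272-82304509, 238 bases long and downstream of the start of the cytokine gene Il15, WT had 0.238 to 0.961, HET 0 to 0.939 and KO 1.55 to 6.4. In both, KO libraries were above all others. The remaining pair were loci of 104 and 106 bases with values up to 1962 FPKM and some libraries at 0, and they did not pass the test: chr13:104900123-104900228 had 0 to 746 FPKM in WT and 268 to 802 in KO (limma-trend adjusted p = 0.153), and chr5:90720554-90720657 had 0 to 1962 and 0 to 1926 (adjusted p = 0.685).

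The sixth called locus of that set, chr11:88269436-88277806 on the plus strand (RefSeq gene Gm34366), lies 16252 bases upstream of Ccdc182 on the same strand, and here gene and locus rose together. The locus had 0.0687 to 0.181 FPKM in WT, 0.12 to 0.178 in HET and 1.04 to 1.68 in KO (log2 difference 2.63, SE 0.16, limma-trend adjusted p = 5.6e-09). Ccdc182, a gene for a coiled-coil protein, had 0.71, 0.973, 0.936, 1.1 and 1.1 FPKM in WT, 0.524, 0.778 and 1.1 in HET and 3.25 to 8.88 in KO. No KO library overlapped the others. Its log2 difference was 2.52 (SE 0.24, limma-trend adjusted p = 8.4e-07). The nearest named locus, RP24-402O2.2, lies on the other side of the locus from Ccdc182 and also rose, by 0.75 (limma-trend adjusted p = 6.8e-05).

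Some intergenic loci that rose lay in groups. Joined where they lie within 10 kb of each other, the 1569 loci form 1340 groups, of which 188 hold at least 2. In 38 of these 188 every locus was higher in KO, in 48 at least 2 were, and in 91 none was. Of all 1569 loci 34.4% were higher, and loci of a group can share a range or a transcript. The group with the most members is at chr17:9759676-9776184, where all loci overlap 4930452A19Rik and 4 of 5 rose, 3 of them on the minus strand and 1 on the plus strand. The neighbours in it (chr17:9762549-9763774, chr17:9763880-9764775 and chr17:9774187-9776184, all minus strand) had KO means of 0.326 ± 0.107, 1.27 ± 0.472 and 0.563 ± 0.118 FPKM (SD, n = 6) against WT means of 0, 0.00613 and 0.0107 (n = 5). The fifth, chr17:9759676-9760188, had 0.0914 ± 0.119 in KO and 0 in WT (limma-trend adjusted p = 0.176).

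Between Boc, a receptor of Sonic hedgehog signalling, and Nepro, a gene of neural progenitors, 4 of 4 loci rose over chr16:44579677-44687891. The most abundant, chr16:44663281-44672464 on the plus strand and overlapping RefSeq gene Gm30311, had 2.59 to 6.47 FPKM in WT, 3.64 to 5.1 in HET and 4.2 to 14.5 in KO. Here the groups overlapped (log2 difference 0.89, SE 0.26, limma-trend adjusted p = 0.0216). The next on the plus strand, chr16:44677386-44680602, did not overlap, with 0.114 to 0.177 in WT, 0.13 to 0.196 in HET and 0.766 to 1.35 in KO (log2 difference 2.29, adjusted p = 1.4e-08). The other 2 had KO means of 1.01 ± 0.174 and 0.258 ± 0.19 FPKM (SD, n = 6) and WT means of 0.216 ± 0.118 and 0.0115 ± 0.0258 (SD, n = 5). Near Atf7ip, whose product works in heterochromatin silencing, 3 loci share the range chr6:136458407-136471008 (RefSeq gene Gm36897) and rose by 2.62, 2.83 and 2.87. Of these, 2 lie on the plus and 1 on the minus strand, and reads of loci that share a range may not be separable.

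Few pairs of loci ran in opposite directions from a common place. Among intergenic loci with a strand, 16 pairs had a minus-strand and a plus-strand locus running away from each other with 5′ ends within 5 kb. In 4 pairs both loci were higher in KO, in 8 only 1 was and in 4 none. Among all 1569 intergenic loci 34.4% were higher, loci that entered through KO alone included. Whether paired loci differ from the rest was not tested. Of the 4 pairs with both loci higher, 2 share the plus-strand locus in 4930452A19Rik described above. The others lie near Ddx11, where the loci of chr17:66232105-66234784 and chr17:66235774-66237375 rose by 1.86 and 1.1, and near Fbln2, where those of chr6:91284299-91284868 and chr6:91286859-91291130 rose by 1.56 and 1.95. In each of these pairs the first range is on the minus strand, and 990 and 1991 bases lie between the 5′ ends. Strand is not a column of the tables. It was read from the order of the rows, which run in 3 position-sorted blocks per chromosome. Of 11561 named loci, 99.965% matched the strand of the annotation. That check covers named loci only, and the strand of unnamed loci was not tested.

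The 12 lower loci had few values behind them. All had been detected in WT on its own, with WT means from 0.186 to 9.48 FPKM, and 11 were lower by at least 2-fold, with log2 differences from -4.67 to -0.89. In 1 of them, chr15:87454280-87469445 (minus strand, RefSeq gene Gm35422, upstream of Fam19a5), every KO library was below every WT library (beside 1.49% of all loci), at 0 to 0.197 FPKM in KO, 0.115 to 0.378 in HET and 0.221 to 0.572 in WT (log2 difference -1.44, SE 0.33, limma-trend adjusted p = 0.00397). In another, chr12:22447311-22448519, values were above 0 in all 14 libraries. It had 0.44 to 0.973 in WT, 0.439 to 0.775 in HET and 0.142 to 0.52 in KO, where the groups overlapped (log2 difference -0.89, SE 0.25, adjusted p = 0.0149). A locus of 307 bases upstream of Zmynd11, chr13:9801967-9802273, had 0.0929 to 0.966 in WT, 0 to 0.0704 in HET and 0 to 0.151 in KO. At chr11:12868320-12868473, chr14:24519060-24557882, chr7:62297524-62309841, chr13:112398165-112399212 and chr16:88351194-88351554 only WT libraries reached 0.1 FPKM. These loci entered the set through WT alone and had to be lower in KO. Their p-values are therefore descriptions that the rule largely fixes. The calls of 8 of the 12 were lost under at least 1 alternative analysis, and those of 4 under none.

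The largest of these differences lies in the imprinted region of chromosome 7 that gives rise to the neuronal Snrpn and Snhg14 transcripts. The locus chr7:60413413-60503102 on the minus strand overlaps both RefSeq genes. It had 5.58, 4.86, 2.86, 32.1 and 2.06 FPKM in WT, 0 in all HET libraries, and 0 in all KO libraries except KO1, which had 12. WT and KO overlapped through that library, the log2 difference was -4.67 (SE 1.2, limma-trend adjusted p = 0.0114), and with a pseudocount of 1 the call was lost (adjusted p = 0.0569). The named locus of Snrpn and Snhg14 next to it did not pass the test (log2 difference -0.06, adjusted p = 0.751). A second locus of this kind, chr7:62297524-62309841 near Ndn, was at 0 in 2 WT libraries, at 0.333 to 0.856 in the other 3 and at 0 in all HET and KO libraries, and its call was lost without KO1, KO4, KO6, WT2, WT3 or WT5. Of the 12, only the locus upstream of Nebl, chr2:17752696-17756510, was lower in KO against both groups, with 0 to 2.57 FPKM in WT, 0.256 to 0.659 in HET and 0 to 0.215 in KO (limma-trend adjusted p = 0.0369 against WT and 0.0443 against HET). The call against WT was lost in 15 alternatives, among them when any of WT2 to WT5 or KO1 to KO5 was left out.

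Few of these loci passed the test in heterozygous heads. Of the 1569, 1 was higher and 0 lower in HET than in WT (limma-trend), beside 0.00774% and 0% of all loci. At an unadjusted p under 0.05 stood 61 of them (3.89%), beside 2.33% of all loci. The called one, chr17:79554051-79554268, is 218 bases long without a strand and lies upstream of Rmdn2. It had 1.99, 0.629 and 0.542 FPKM in the HET libraries and was listed at 0 in all WT and KO libraries. This locus entered the set through the HET libraries alone and had to be higher there, so its call is a description. Among the 539 loci that were higher in KO, the HET mean was above the WT mean in 177, below it in 172 and equal to it in 190, and the median HET minus WT log2 difference was 0.

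Against HET heads, KO heads had 453 loci higher (28.9%) and 14 lower (0.892%), beside 18% and 3.19% of all loci. Both comparisons use the same KO libraries. Of the 453, 384 had entered the set through KO libraries alone and had to be higher there. Among the 303 loci that WT detects on its own, 53 were higher and 4 lower than in HET. Of all 19355 loci that WT detects on its own, 2108 were higher and 800 lower. Of the 539 loci higher than in WT, 442 were called higher than in HET, and in 380 every KO library exceeded every HET library.

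At the loci with the highest FPKM the genotypes overlapped. Of the 8 with the highest mean, 7 were shorter than 300 bases, none had a strand, and none was called in KO against WT or HET. The first, chr1:122357131-122357243 (113 bases), had 5753 to 9342 FPKM in WT, 3005 to 8634 in HET and 4857 to 11886 in KO, with full overlap. The only one over 300 bases, chr3:5860333-5860777, had 2908 to 4182 in WT and 2482 to 4824 in KO. Values above 100 FPKM in any library were found in 21 loci under 300 bases and in 3 longer ones. At such lengths an FPKM depends strongly on how the effective length was estimated, and 1 locus of 100 bases, chr1:87731157-87731256, went from 0 to 17868 FPKM among WT libraries.

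The 5 longest loci, of 201566 to 394825 bases, were not called either. The longest, chr18:48941768-49336592, had 0.0571 to 3.34 FPKM in WT, 0 to 0.48 in HET and 0.121 to 0.654 in KO. A pair of loci on the minus strand and without strand share chr15:74232841-74487670 upstream of Adgrb1, the gene of a brain adhesion receptor. The minus-strand one had 1.2 to 2.16 FPKM in WT, 1.53 to 1.98 in HET and 0.808 to 1.9 in KO, and the groups overlapped.

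The share of loci that were higher varied with length and gap. Of loci under 300 bases 12.8% were higher, of those from 300 to 1000 bases 52.2%, from 1000 to 3000 bases 50.9%, from 3000 to 10000 bases 31.9% and of longer ones 17.6%. Of loci 10 to 20 kb from a named range 40.2% were higher, from 20 to 50 kb 33.8%, from 50 to 100 kb 28.5% and beyond 100 kb 24.1%. Shares on the plus strand (34.8% of 474), on the minus strand (34.4% of 483) and without a strand (34.0% of 612) were near each other. Of the 328 loci under 300 bases 325 had no strand, and among longer loci without a strand 57.8% were higher. Where a locus overlapped neither a GENCODE M21 nor a RefSeq gene 40.2% were higher, and where it overlapped a RefSeq gene 24.3% were. These shares include loci that entered through KO alone and carry no test.

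**Figure D4:**
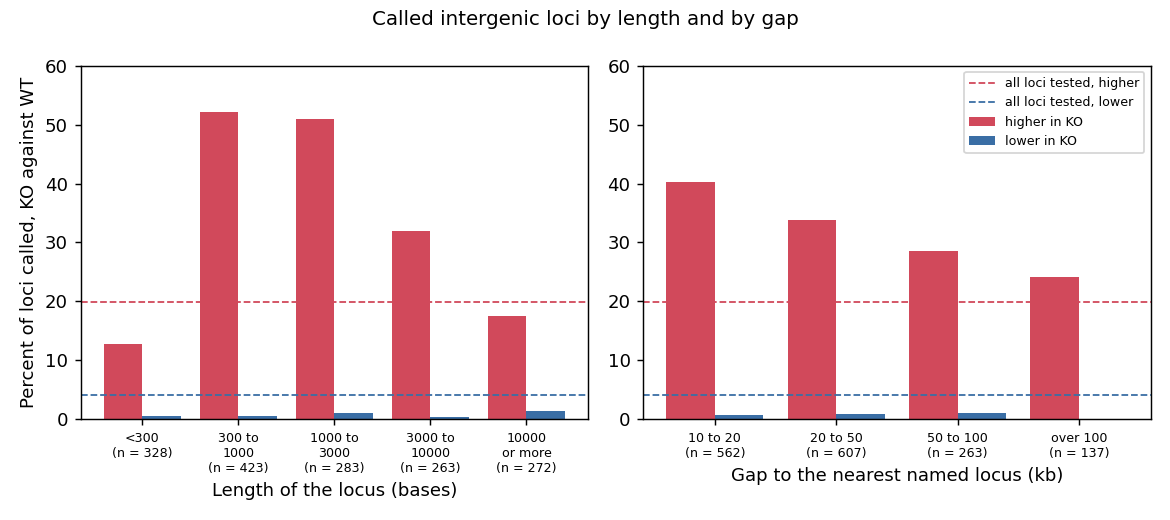
Percent of intergenic loci called higher (red) or lower (blue) in KO against WT by length (left) and by gap to the nearest named locus (right), with the number of loci under each pair of bars and dashed lines at the shares among all loci tested (19.9% and 4.19%). The share higher peaks at 52.2% for lengths of 300 to 1000 bases and falls from 40.2% at 10 to 20 kb to 24.1% beyond 100 kb.

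Few of the nearest coding genes passed the test. The median distance from an intergenic locus to the nearest coding start was 88222 bases. Of the 383 distinct coding genes nearest to a higher locus that were tested, 13 (3.39%) rose and 26 (6.79%) fell in KO, beside 8% and 6.36% of all named loci with a coding gene. The median log2 difference of the 383 was -0.03. This balance depended on scaling: 6 were higher and 349 lower under a common median, 12 and 85 after quantile normalization, and 112 and 7 in the authors' matrix. Across the 1349 loci with a tested coding gene, the log2 differences of locus and gene had a Spearman correlation of -0.007 and a Pearson correlation of 0.022, both computed from the same libraries, with some genes counted for several loci.

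Of the 13 genes that were higher, those with the largest differences were 1600014C23Rik (4.44 on the log2 scale), Ccdc182 (2.52), Otos (1.74), a gene of the inner ear, and Ccr7 (1.60), a chemokine receptor gene. Among the 26 that were lower were the cartilage matrix gene Matn1 (-1.97), the muscle calcium store gene Casq2 (-0.95), the matrix genes Dcn (-0.72), Col14a1 (-0.52) and Col1a2 (-0.39), the thyroid hormone-inactivating enzyme gene Dio3 (-0.63) and Klf4 (-0.40). These genes were singled out after their values were seen. By nearest named locus rather than coding start, 155 of 914 tested (17%) were higher and 46 (5.03%) lower, beside 14% and 5% of all named loci. The lower count fell to 30 without WT4, and the split was 112 and 526 under a common median, 95 and 226 after quantile normalization and 242 and 10 in the authors' matrix.

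**Figure D5:**
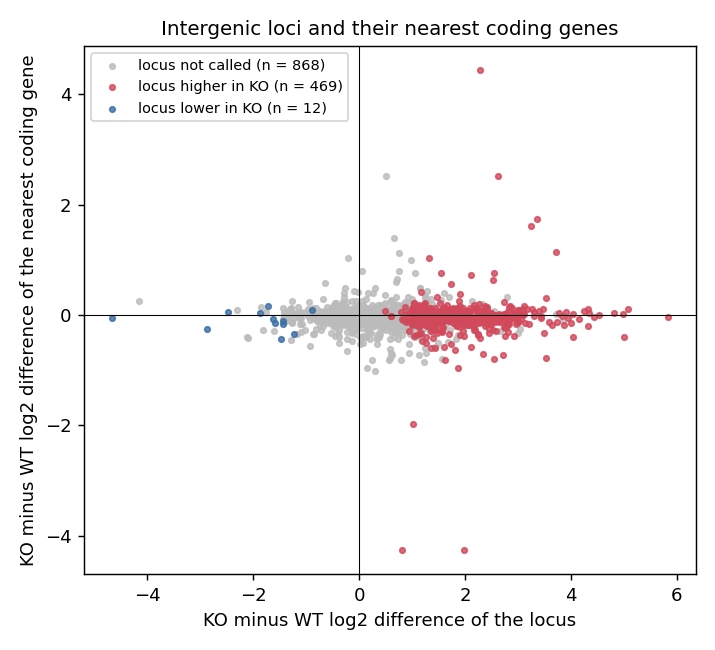
KO minus WT log2 difference of each intergenic locus (x) and of the coding gene with the nearest start (y), for the 1349 loci with a tested gene, coloured by the call of the locus. The 469 higher loci spread along the x axis while most of their genes stay near 0 on the y axis; the genes far above 0 include 1600014C23Rik and Ccdc182.

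Zcchc8 (chr5:123698294-123721100) was highest in WT and lowest in KO. WT libraries had 39.7 ± 2.32 FPKM (SD, n = 5), HET libraries 25.7 ± 1.64 (SD, n = 3) and KO libraries 15.5 ± 3.91 (SD, n = 6), and the groups did not overlap. The KO difference on the log2 scale was -1.39 (SE 0.15, limma-trend adjusted p = 2.5e-06). The HET difference was -0.62 (SE 0.18) and did not pass the limma-trend test over all loci (adjusted p = 1). For this single gene, two-sided exact permutation tests against WT gave p = 0.00216 for KO and p = 0.0179 for HET, the smallest these group sizes allow. Among 34 genes of NEXT, the exosome and other nuclear decay and 3′ end factors that were found and tested, 2 others passed the test. Both were higher, so of the 33 without Zcchc8 2 were higher and 0 lower. Of all named loci with a coding gene, 8% were higher and 6.36% lower. Pcf11, a factor of 3′ end cleavage and transcription termination, went up from 18.9 ± 1.16 (SD, n = 5) in WT to 27.8 ± 3.45 (SD, n = 6) in KO, with a limma-trend adjusted p of 7.7e-05. Srrt, which encodes ARS2 and links the cap-binding complex to nuclear decay, rose in a locus shared with Mir7036 from 116 ± 9.26 to 143 ± 9.05 (adjusted p = 0.00143). The NEXT partners Rbm7 (29.4 in WT, 29.2 in KO) and Skiv2l2 (37.0 and 37.7) had adjusted p of 0.921 and 0.773.

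Markers of the head were present, with 31 of the 33 that were matched at an FPKM of at least 1 in every library. Of 7 markers of trunk organs, 5 stayed under 1 in all. Of 33 head markers tested 3 rose and 5 fell in KO, beside 8% and 6.36% of all named loci with a coding gene. Among those that rose were En2 of midbrain and hindbrain, from 7.82 ± 1.22 to 10.3 ± 1.45 FPKM (SD, n = 5 and 6, limma-trend adjusted p = 0.0135), and the neural progenitor gene Sox2 in a locus shared with Sox2ot, from 68.0 ± 6.12 to 79.9 ± 9.68 (adjusted p = 0.048). Other markers of these regions and cells did not pass the test. Their log2 differences were -0.02 for Gbx2, -0.29 for Hoxb2, -0.05 for Pax6, 0.0 for Hes5, 0.15 for Nes and -0.06 for Vim. Krt5 of surface epithelium fell from 34.4 ± 5.51 to 20.3 ± 2.58 FPKM and Krt14 from 22.9 ± 4.12 to 14.2 ± 1.9, with limma-trend adjusted p of 3.9e-05 and 2.3e-04. The others that fell were Col1a1 of mesenchyme (log2 difference -0.36, adjusted p = 0.0245) and the lens genes Cryaa (-1.0, adjusted p = 0.0493) and Cryba1 (-1.06, adjusted p = 0.0364). Epcam of surface epithelium (-0.08) and the cartilage and mesenchyme genes Col2a1 (-0.23), Twist1 (0.09) and Prrx1 (-0.01) did not pass the test. Nor did the muscle genes Myog (-0.82), Myh3 (-1.05) and Actc1 (-1.15), with limma-trend adjusted p of 0.174, 0.0607 and 0.0561. The part of such shifts in the differences at intergenic loci was not tested.

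The limits of the rule cut through a continuum. Just inside the gap limit lie 2 loci that share chr5:142371006-142391490 at 10006 bases, with KO means of 0.515 and 0.476 FPKM, and just outside it lies chrX:99481253-99481755 at 9979 bases, with 0.0199 in WT and 0.959 in KO. Just inside the level limit lies chr17:79733691-79789812, which had 0.1 in the third of its libraries from the top, and just outside it chr6:82119773-82120083, which had 0.0999 there.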

How the data were processed

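The authors deposited FPKM values per locus and library, and the submitters' processing notes name TopHat2 2.1.0, Cuffdiff and mm10 without giving roles, strand setting or gene models. A second deposited table holds the authors' log2 FPKM after quantile normalization, blank where FPKM is 0. Starts were raised by 1, since the deposited ones count from 0. Values were analysed as log2(FPKM + 0.1). Loci with at least 0.1 FPKM in at least 3 libraries (25824) were fitted together with limma-trend (limma 3.58.1, R 4.3.3, robust), with a mean per genotype over all 14 libraries, without covariates, and Benjamini-Hochberg adjustment at a threshold of 0.05. Log2 differences are those of the group means on this scale. The fit was tested on simulated data. Exact tests used scipy 1.17.1.

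Loci are named by rule: the 12 largest rises and falls, the 8 highest means, the 8 largest differences among loci WT detects on its own, the 5 longest, those called in HET against WT, those at the limits of the rule and their neighbours. Groups of neighbouring loci, the printed promoter windows and the coding genes listed were chosen after their values were seen. The members and lists were chosen with earlier results of these data known. Gene positions came from GENCODE M21 and RefSeq GRCm38.p6, and the genome sequence was not used here. Same-numbered libraries did not deviate together (11 pairs, correlations from -0.0682 to 0.0658), so numbers were not taken as pairs. Zc3h18 of the decay list and the neuron marker Tubb3 were not matched. One marker result is not reported here.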

Additional observations from a re-analysis of the deposited data

Results flagged for a closer look

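A gap test for a single library far from its group (Dixon's test, the gap to the nearest library over the whole range) was applied to 42 groups of values given above, and 5 were picked out. Chance picks about 1 group in 20. All lie in single loci. At chr4:133911191-133911379 near Rps6ka1, WT4 had 0.468 FPKM and the other WT libraries 0. At chr9:96670189-96671241 near Rasa2, WT3 had 0.124 and the others at most 0.0265. WT3 was also high at chr13:34148316-34151078 near Psmg4, with 0.112 against 0.01 to 0.0194, where KO1 was low with 1.58 against 2.49 to 2.87. At chr11:88269436-88277806 near Ccdc182, WT4 was low with 0.0687 against 0.156 to 0.181. The calls of these 4 loci held in the analyses without the library named.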

How the results depend on the processing

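The 12 largest rises kept their calls in all of their 24 or 25 alternatives, with adjusted p of at most 1.81e-05. Of the 539 higher loci, 335 were higher in all 23 alternatives other than the stricter filter and the authors' matrix, and 475 to 521 were with 1 library left out. Leaving out each library gave 482 to 570 higher and 8 to 17 lower in KO against WT, 375 to 487 and 11 to 18 against HET, 1 to 2 and 0 to 1 in HET against WT, 48 to 57 higher among loci WT detects on its own, 146 to 159 higher and 30 to 59 lower among nearest named loci, and -1.48 to -1.25 for Zcchc8. With a filter of 0.5 FPKM in 3 libraries, 213 were higher and 4 lower in KO against WT, and 193 and 3 against HET, since 451 loci were tested. After quantile normalization, 352 were higher and 98 lower against WT, 296 and 91 against HET, 3 higher in HET, 26 higher among loci WT detects on its own, and 95 higher and 226 lower among nearest named loci. With a common median, 61 were lower against WT, 60 against HET, 2 higher in HET and 526 nearest named loci lower. The cause of these changes was not tested. In the authors' matrix, where 473 loci could be tested, 136 (28.8%) were higher and 14 (2.96%) lower. Of all loci tested there, 28.4% were higher and 1.9% lower, so among testable loci the higher share of intergenic loci was near that of all loci. Loci blank in too many WT or KO libraries were left out. Of the 539 higher loci 160 could be tested in that matrix, and 133 of these were higher. There 242 nearest named loci were higher and 10 lower. Without a filter, 6 were lower against WT, 8 against HET and 28 among nearest named loci. With the replicate number as a block, 8 were lower against HET, 0 higher in HET and 21 nearest named loci lower, and 489 and 11 loci were higher and lower against WT. With sex as a covariate, 525 loci were higher and 12 lower against WT. Library weights gave 3 higher in HET, and a pseudocount of 1 gave 0. Among the 400 loci beyond 50 kb, 108 were higher and 3 lower against WT, 87 and 4 against HET, 8 higher among those WT detects on its own, and 37 and 13 among nearest named loci. Among the 643 detected in 6 libraries these were 323 and 5, 299 and 5, and 91 and 16, with 0 higher in HET. Chosen after seeing the data, loci with a strand gave 331 and 6, 283 and 8, 0 in HET and 26 nearest named loci lower, loci outside annotated genes gave 6 lower, 22 higher among those WT detects on its own, and 94 and 27 among nearest named loci, and loci of at least 300 bases gave 0 in HET. Depth is unknown and limits low loci most, since values listed at 0 carry no interval.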
